A study of Drosophila melanogaster with 24 samples.

Results

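This account follows 36 genes of cell division and DNA replication through metamorphosis of the genital disc of Drosophila melanogaster, the larval primordium of the internal and external genitalia. They are those of 49 listed symbols that had a microarray probe set assigned to them alone, out of 11982 genes measured that way, and each gene is read from the probe set with the highest mean over all arrays. The other 13 listed symbols had no such probe set and are not analysed here: dap, E2f1, Mcm7, geminin, RnrS, CycA, Cdk1, stg, polo, aurA, BubR1, Klp3A and pav. Total RNA was measured on 24 Affymetrix arrays, 4 biological replicates for each of 6 groups (n = 4 arrays per group throughout): female and male discs of wandering third-instar larvae (L3), of prepupae at about 6 hours after puparium formation (P6), and of pupae at about 20 hours (P20). Every animal carried esgGAL4.B and UAS-GFP.nls over the CyO balancer, a marker used to find imaginal discs at dissection, so none of the groups lacks the transgenes. The values are log2 units of a robust multi-array average (RMA), in which 1 unit is a 2-fold difference, and levels of different genes are not set against each other because each probe set has its own response. A difference is said to pass where limma gave it a p under 0.05 after Benjamini-Hochberg adjustment across the 11982 genes.

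A dividing cell passes from G1 into DNA synthesis when G1 cyclins and their kinases relieve the repression of E2F target genes by the retinoblastoma protein, and origins that were licensed with the MCM helicase then fire. Mitotic cyclins drive the cell into mitosis, where the spindle checkpoint holds the anaphase-promoting complex until every kinetochore is attached, and a central spindle then positions the contractile ring that parts the daughters. Imaginal disc cells proliferate through larval life; in the wing disc they are known to pause in the early prepupa before a last round of pupal divisions.

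The tissue label was read against disc genes. Group means of the hindgut and genital primordium gene cad lay between 10.11 and 11.27 log2 units, those of the segment polarity gene en between 9.31 and 10.02, and those of ci between 10.78 and 11.20. Not every gene of this list of 19 was high. Of the same list, eve lay at 4.18 to 5.101 and tll and toy at 3.22 to 3.58. Abd-B, wg and hth were not analysed here. The disc markers moved between stages too, and their part in the changes below was not tested. Of 19, 9 were lower and 2 higher at P6 than at L3 in females, and 8 lower and 3 higher in males; at P20 relative to P6, 7 were higher and 3 lower in females, and 6 higher and 2 lower in males. The hindgut primordium gene byn averaged 4.47 at P6 against 7.90 at L3 in females and 4.41 against 7.67 in males. Their summed level (log2) ran from 13.50 to 13.65 in female P6 arrays against 13.62 to 13.99 in female L3 arrays, and from 13.48 to 13.68 in male P6 arrays against 13.67 to 13.78 in male L3 arrays. Replicates of a group correlated at 0.964 to 0.994. Array 1 of each sex stood apart from the other 3 arrays at L3. It was the lowest of its group in both sexes for 13 members, among them Mcm2, Orc1, cid, Klp61F and fzy, and the highest in both for 13 others, among them Bub1, Bub3, E2f2, pim and CycB, against at most 5 members each way for any other replicate number. Calls that involve L3 were therefore also made without these 2 arrays, a setting chosen after the data were seen, and those it changed are given below. All groups share 1 spread per gene, so the L3 arrays also bear on comparisons without L3, which are not given without these 2 arrays. The median SD of members was 0.24 in female and 0.22 in male L3 arrays, and 0.12 to 0.17 in the other groups.

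Markers of other cell types also moved between stages, and their part in the changes below was not tested. Of 17 hemocyte markers, 8 were lower and 3 higher at P6 than at L3 in females, and 9 lower and 4 higher in males. Their summed level (log2) ran from 13.56 to 13.74 in female P6 arrays against 13.60 to 14.57 in female L3 arrays, and from 13.44 to 13.57 in male P6 arrays against 13.54 to 14.39 in male L3 arrays. Bright genes such as Fer1HCH (11.98 at L3 and 12.44 at P6 in females) weigh most in this sum. PPO1 averaged 10.04 at L3 and 4.17 at P6 in females and 9.80 and 4.06 in males. For eater the averages were 8.78 and 4.40 in females and 9.15 and 4.37 in males. The list also holds gcm, at 2.91 at L3 and 8.43 at P6 in males, and lz, at 9.31 in female and 4.58 in male L3 discs. Of 7 fat body markers, 2 were higher and 3 lower at P6 than at L3 in females, and 3 higher and 1 lower in males, with a summed level of 14.10 to 14.70 in female P6 arrays against 12.10 to 14.01 in female L3 arrays, and of 13.79 to 14.65 in male P6 arrays against 10.91 to 14.12 in male L3 arrays. Of 33 testis and germline markers, 13 were higher and 3 lower at P6 than at L3 in males, where they summed to 11.22 to 12.67 at P6 and 10.48 to 11.69 at L3, while female arrays of every stage stayed between 10.36 and 10.78. Of 8 neuron and glia markers, 5 rose in females and 6 in males at P20 relative to P6 and none fell, with sums of 12.01 to 12.58 in female P20 arrays against 10.21 to 10.31 in female P6 arrays, and of 11.75 to 12.35 in male P20 arrays against 9.27 to 10.10 in male P6 arrays. Of 6 trachea markers, 3 were higher and 1 lower at P6 than at L3 in females, and 3 higher and 3 lower in males, with sums of 13.69 to 13.93 in female P6 arrays against 11.37 to 11.81 in female L3 arrays, and of 13.59 to 13.75 in male P6 arrays against 11.18 to 11.83 in male L3 arrays. At P20 they summed to 10.84 to 11.07 in females and 10.14 to 10.85 in males. The bright genes verm and serp weigh most in the P6 sums. Averages of verm were 8.70 at L3 and 12.52 at P6 in females and 8.62 and 12.43 in males. Those of serp were 10.78 and 12.94 in females and 10.75 and 12.86 in males. The average of vvl was also higher at P6 in each sex, and those of btl, kni and knrl were lower. For kni they were 8.47 and 7.92 in females and 7.57 and 6.20 in males. Of 11 muscle and myoblast markers, 4 were higher and 1 lower at P6 than at L3 in females and 3 higher and 1 lower in males, and 6 were higher and 2 lower at P20 than at L3 in each sex; they summed to 10.75 to 11.33 at L3, 11.26 to 11.52 at P6 and 11.38 to 11.69 at P20 in females, and to 10.49 to 11.04, 10.94 to 11.24 and 11.35 to 11.50 at those stages in males. At P20, 10 of the 17 hemocyte markers in females and 11 in males were lower than at L3, and 3 in females and 2 in males were higher. Relative to P6, 3 in females and 7 in males were lower at P20, and 2 in each sex were higher. Hemocyte sums were 13.24 to 13.46 in female and 13.08 to 13.16 in male P20 arrays. No marker list was at 0, since RMA values have no zero. In RNA from whole discs, fewer cells of a type and less RNA per cell cannot be told apart.

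The members formed a trough at P6. In females 24 of 36 (66.7%) fell at P6 relative to L3 and 0 rose, where 21% of all genes fell and 14.6% rose. In males 20 (55.6%) fell and 1 (2.78%) rose, against 18.5% and 16.3% of all genes. From P6 to P20 the direction turned: 28 members (77.8%) rose in females and 25 (69.4%) in males with 0 falling in either sex, where 14.2% and 13.1% of all genes rose and 12.1% and 12.6% fell. The median member difference was -0.68 in females and -0.43 in males for P6 minus L3, against -0.09 and -0.04 over all genes, and 0.64 and 0.50 for P20 minus P6, against 0.04 and 0.01. For 30 of 36 members P6 was the stage with the lowest mean, a count that was the same in each sex. The share of all genes with their lowest mean at P6 is not given here.

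**Figure D1:**
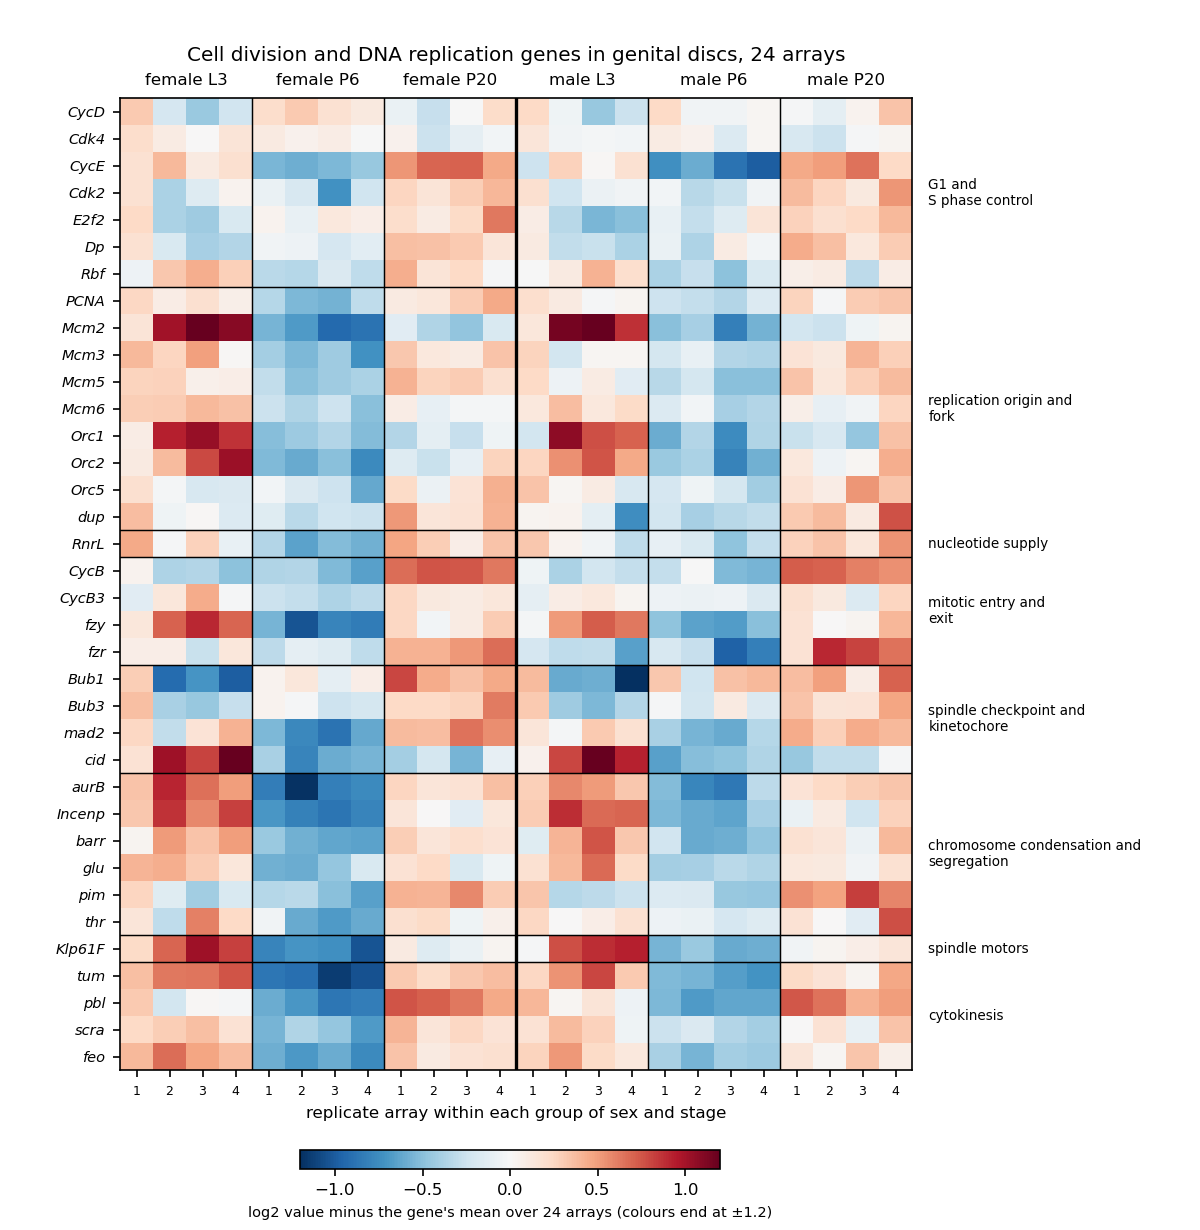
Each row is a member, each column an array, and colour gives the log2 value minus the gene's mean over 24 arrays (blue lower, red higher). The P6 columns of both sexes are blue in most rows, and the first L3 column of each sex differs from the 3 beside it for genes such as Mcm2, cid and Bub1.

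The falls were shared by the sexes. The 20 members that fell in males at P6 all fell in females too, and Mcm3, RnrL, CycB3 and thr passed in females without passing in males. At P20 relative to P6, 25 members rose in both sexes, and Rbf, CycB3 and thr passed in females without passing in males. A test of the difference between the sexes is given further on, and passed for none of these genes. Scaling of the arrays changed little. Array medians over the 11982 genes ran from 6.50 to 6.96. Centring each array on this median shifted all genes by -0.08 in females and -0.13 in males for P6 minus L3, and by 0.09 and 0.12 for P20 minus P6. The member medians were then -0.76, -0.57, 0.73 and 0.63, against -0.17, -0.18, 0.13 and 0.13 over all genes. Without array 1 of both L3 groups 24 members fell in females and 20 in males at P6, and 3 rose in each sex.

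**Figure D2:**
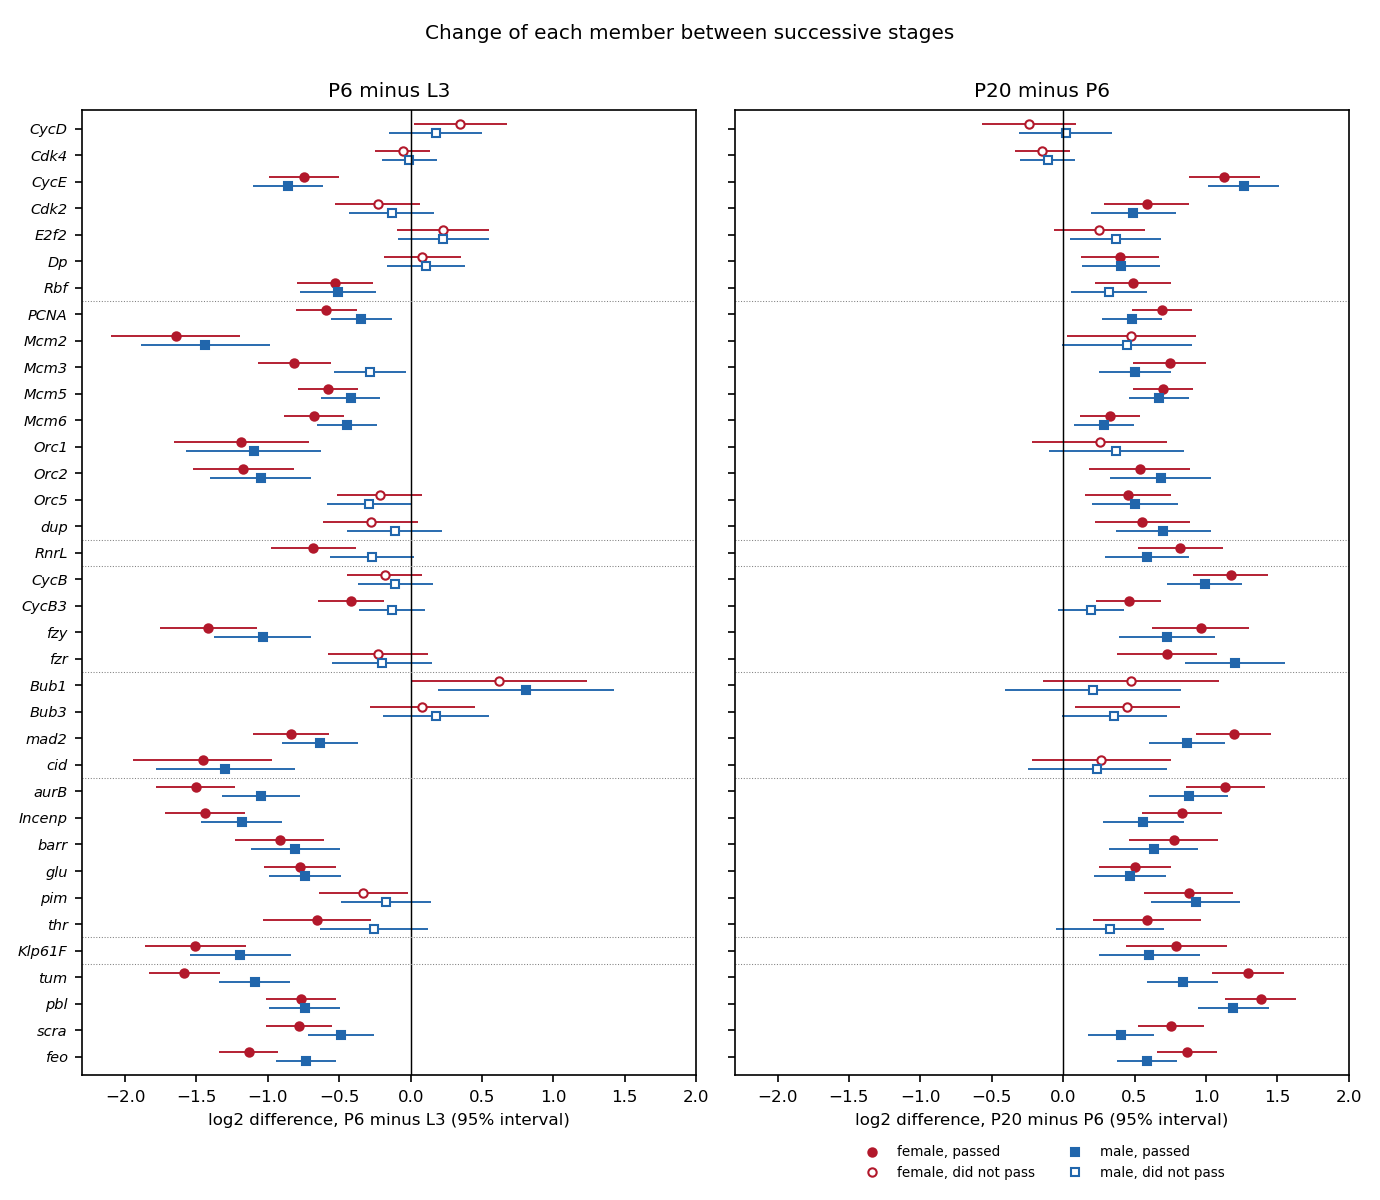
Log2 differences of each member with 95% intervals, P6 minus L3 on the left and P20 minus P6 on the right, female circles above male squares; filled symbols passed the threshold and dotted lines part the roles. On the left 24 female and 20 male symbols are filled below 0, and on the right 28 and 25 are filled above 0.

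Among regulators of G1 and S phase, the cyclin that starts DNA synthesis moved and the G1 pair did not pass. CycE, whose product activates the kinase Cdk2 at S phase entry, read 9.96, 10.15, 9.87 and 9.96 at L3, 9.22, 9.18, 9.23 and 9.31 at P6, then 10.30, 10.47, 10.48 and 10.22 at P20 in females. In males it read 9.52, 10.05, 9.79 and 9.95 at L3, 9.03, 9.17, 8.88 and 8.78 at P6, then 10.22, 10.27, 10.42 and 10.01 at P20. All 4 P6 arrays lay below every L3 and every P20 array in each sex. The P6 minus L3 difference was -0.75 ± 0.12 (SE) in females (adjusted p = 3.42e-05) and -0.86 ± 0.12 in males (adjusted p = 7.69e-06). P20 minus P6 was 1.13 ± 0.12 in females (adjusted p = 1.28e-07) and 1.26 ± 0.12 in males (adjusted p = 2.37e-08), a 2.4-fold rise that gave the smallest adjusted p of any member in male discs at that step.

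Cdk2 itself read 10.97, 10.41, 10.63 and 10.83 at L3, 10.71, 10.59, 10.05 and 10.55 at P6, then 11.04, 10.94, 11.08 and 11.18 at P20 in female discs. Male discs gave 10.98, 10.55, 10.72 and 10.74 at L3, 10.75, 10.45, 10.52 and 10.74 at P6, then 11.17, 11.04, 10.90 and 11.31 at P20. It did not pass between P6 and L3, with differences of -0.23 and -0.13 in females and males, and it rose at P20 relative to P6 by 0.58 in females and 0.49 in males (adjusted p = 0.00365 and 0.0137). The male rise did not pass without male P20 replicate 4 (0.42, adjusted p = 0.0507). CycD and Cdk4, the cyclin and kinase of G1 growth signals, passed in none of the 6 stage comparisons. Their group means spanned 9.09 to 9.43 for CycD and 10.94 to 11.16 for Cdk4. Without array 1 of both L3 groups, CycD was higher at P6 than at L3 in females by 0.50 (adjusted p = 0.00384).

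The retinoblastoma family gene Rbf, a repressor of E2F targets, had values of 8.70, 9.09, 9.20 and 9.05 at L3, 8.45, 8.42, 8.60 and 8.46 at P6, then 9.21, 8.92, 9.01 and 8.75 at P20 in females. The male values were 8.76, 8.87, 9.18 and 8.97 at L3, 8.39, 8.49, 8.27 and 8.58 at P6, then 8.84, 8.87, 8.45 and 8.86 at P20. It fell at P6 relative to L3 with a difference of -0.53 in females (adjusted p = 0.00257) and -0.51 in males (adjusted p = 0.0037), and rose at P20 in females by 0.49 (adjusted p = 0.00606), while the male P20 minus P6 difference was 0.32 (adjusted p = 0.0733). E2f2, the E2F that acts mainly as a repressor, and Dp, the dimer partner of both E2Fs, did not follow the trough. For E2f2 the female arrays read 9.52, 8.90, 8.85 and 9.10 at L3, 9.32, 9.19, 9.41 and 9.37 at P6, then 9.49, 9.38, 9.51 and 9.92 at P20. Its male arrays read 9.37, 8.95, 8.74 and 8.78 at L3, 9.19, 8.99, 9.13 and 9.44 at P6, then 9.56, 9.47, 9.53 and 9.67 at P20. The highest L3 value of each sex came from array 1; it lay above every P6 array in females and within the P6 values in males. The P6 minus L3 difference of E2f2 was 0.23 in females and 0.23 in males, neither past the threshold, and without array 1 of both L3 groups it was 0.37 in each sex (adjusted p = 0.0214 and 0.0222).

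Dp gave 9.53, 9.16, 8.95 and 8.99 at L3, 9.30, 9.29, 9.15 and 9.22 at P6, then 9.71, 9.69, 9.66 and 9.49 at P20 in females. It gave 9.46, 9.05, 9.08 and 8.97 at L3, 9.27, 8.97, 9.44 and 9.31 at P6, then 9.79, 9.71, 9.48 and 9.65 at P20 in males. Its P6 minus L3 differences of 0.08 in females and 0.11 in males did not pass, and it rose at P20 relative to P6 by 0.40 in females and 0.41 in males (adjusted p = 0.0268 and 0.0246). These last 2 calls rest on few arrays: the female one ended without female P6 replicates 3 or 4 or female P20 replicates 1, 2 or 3 (0.37 to 0.39, adjusted p up to 0.0735), and the male one without male P6 replicate 2 or male P20 replicates 1 or 2 (0.31 to 0.39, adjusted p up to 0.102).

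Of the 9 members of replication origins and forks, 7 fell at P6 relative to L3 in females and 6 in males, and 7 rose at P20 relative to P6 in each sex. The largest fall of any member by fold, in each sex, was that of Mcm2, a subunit of the hexameric MCM helicase that unwinds DNA at forks. It measured 9.52, 10.37, 10.63 and 10.45 at L3, 8.80, 8.68, 8.43 and 8.48 at P6, then 9.23, 9.003, 8.89 and 9.18 at P20 in female discs. In male discs it measured 9.49, 10.51, 10.67 and 10.23 at L3, 8.86, 8.96, 8.54 and 8.79 at P6, then 9.14, 9.10, 9.31 and 9.40 at P20. Array 1 of each sex was the lowest at L3, yet it still lay above every P6 array. The P6 minus L3 difference was -1.65 ± 0.22 in females (a 3.13-fold fall, adjusted p = 3.37e-06) and -1.44 ± 0.22 in males (adjusted p = 2.45e-05). P20 values lay above all P6 values in both sexes, but the differences of 0.48 in females and 0.45 in males did not pass (adjusted p = 0.118 and 0.145). The spread behind these tests includes the L3 arrays, whose SD was 0.49 in females and 0.52 in males, against 0.14 to 0.18 in the other groups.

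Of the other MCM members, Mcm5 and Mcm6 fell at P6 and rose at P20 in both sexes. Mcm5 read 10.49, 10.50, 10.29 and 10.30 at L3, 9.93, 9.72, 9.79 and 9.84 at P6, then 10.64, 10.49, 10.53 and 10.41 at P20 in females. In males the readings of Mcm5 were 10.46, 10.17, 10.32 and 10.09 at L3, 9.89, 10.01, 9.72 and 9.72 at P6, then 10.56, 10.36, 10.51 and 10.61 at P20. P6 arrays lay below all L3 and all P20 arrays in each sex, with P6 minus L3 of -0.58 in females and -0.42 in males and P20 minus P6 of 0.70 and 0.67 in females and males (adjusted p = 0.000108, 0.00266, 1.17e-05 and 2.24e-05). Mcm6 fell with differences of -0.68 in females and -0.45 in males and rose by 0.33 in females and 0.28 in males. The rise of Mcm6 ended in females without P6 replicate 4 or P20 replicate 1 (0.28 and 0.30, adjusted p up to 0.0718) and in males without P6 replicates 3 or 4 or P20 replicates 1 or 4 (0.21 to 0.28, adjusted p up to 0.151), or in a fit to the 2 groups alone (adjusted p = 0.128). Mcm3 fell in females with a difference of -0.81 and rose in both sexes, by 0.75 in females and 0.50 in males; its male P6 minus L3 difference of -0.28 did not pass (adjusted p = 0.0771).

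PCNA, the sliding clamp of DNA polymerase, was at 12.26, 12.10, 12.20 and 12.08 at L3, 11.67, 11.47, 11.44 and 11.70 at P6, then 12.12, 12.14, 12.32 and 12.46 at P20 in females. The male arrays had PCNA at 12.21, 12.12, 11.997 and 12.04 at L3, 11.76, 11.73, 11.66 and 11.84 at P6, then 12.27, 11.99, 12.32 and 12.34 at P20. The P6 arrays of each sex formed a separate lower set. It fell at P6 with differences of -0.59 in females and -0.34 in males (adjusted p = 9.5e-05 and 0.0119) and rose at P20 by 0.69 in females and 0.48 in males (adjusted p = 1.64e-05 and 0.00102).

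The origin recognition complex marks where replication can start, and its members Orc1 and Orc2 fell at P6 in both sexes, as did Orc4 of the companion list of replication genes (-0.90 in females and -0.74 in males). Orc1, its regulated subunit, read 7.44, 8.29, 8.40 and 8.22 at L3, 6.84, 6.92, 6.9998 and 6.83 at P6, then 7.005, 7.24, 7.07 and 7.30 at P20 in females. Orc1 in males read 7.14, 8.43, 8.13 and 8.07 at L3, 6.76, 7.01, 6.60 and 6.99 at P6, then 7.09, 7.16, 6.89 and 7.71 at P20. Array 1 was the lowest at L3 in both sexes. The P6 minus L3 difference was -1.19 ± 0.23 in females and -1.10 ± 0.23 in males (adjusted p = 0.000301 and 0.000776), and the P20 minus P6 differences of 0.26 in females and 0.37 in males did not pass. Orc2 values were 7.73, 8.003, 8.41 and 8.64 at L3, 7.09, 7.02, 7.13 and 6.86 at P6, then 7.47, 7.36, 7.53 and 7.89 at P20 in females. They were 7.88, 8.17, 8.37 and 8.07 at L3, 7.17, 7.25, 6.82 and 7.05 at P6, then 7.75, 7.56, 7.65 and 8.06 at P20 in males. Orc2 fell with differences of -1.17 in females and -1.05 in males (adjusted p = 1.13e-05 and 5.6e-05) and rose by 0.54 in females and 0.68 in males (adjusted p = 0.0224 and 0.00434), the female rise ending without P6 replicate 4 or P20 replicate 4 (0.48 and 0.43, adjusted p up to 0.0832). Orc5 did not pass at P6 (-0.22 in females and -0.29 in males) and rose at P20 relative to P6 by 0.45 in females and 0.50 in males. Its rise ended without female P6 replicate 4 or female P20 replicates 1 or 4 (0.34 to 0.44, adjusted p up to 0.105), and without male P20 replicate 3 (0.42, adjusted p = 0.0508).

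The licensing factor gene dup, the fly Cdt1, loads the MCM helicase onto origins and did not pass at P6. Female values of dup were 9.37, 8.95, 9.02 and 8.84 at L3, 8.86, 8.68, 8.77 and 8.75 at P6, then 9.52, 9.15, 9.18 and 9.42 at P20. Male values of dup were 9.04, 9.04, 8.89 and 8.26 at L3, 8.79, 8.61, 8.67 and 8.71 at P6, then 9.32, 9.39, 9.11 and 9.77 at P20. The L3 and P6 sets overlapped in both sexes, and every P20 array lay above every P6 array. The P6 minus L3 differences were -0.28 in females and -0.11 in males, and the rises at P20 relative to P6 were 0.55 in females and 0.70 in males (adjusted p = 0.0124 and 0.0021). RnrL, the large subunit of ribonucleotide reductase, which makes deoxyribonucleotides, stood at 11.63, 11.15, 11.45 and 11.09 at L3, 10.82, 10.53, 10.66 and 10.59 at P6, then 11.65, 11.47, 11.25 and 11.52 at P20 in females. In males RnrL stood at 11.50, 11.21, 11.13 and 10.86 at L3, 11.07, 10.99, 10.69 and 10.88 at P6, then 11.45, 11.51, 11.31 and 11.71 at P20. RnrL fell at P6 in females with a difference of -0.68 (adjusted p = 0.000668); the male difference was -0.27 (adjusted p = 0.148), and both sexes rose at P20, by 0.82 in females and 0.59 in males (adjusted p = 0.000113 and 0.00328).

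**Figure D3:**
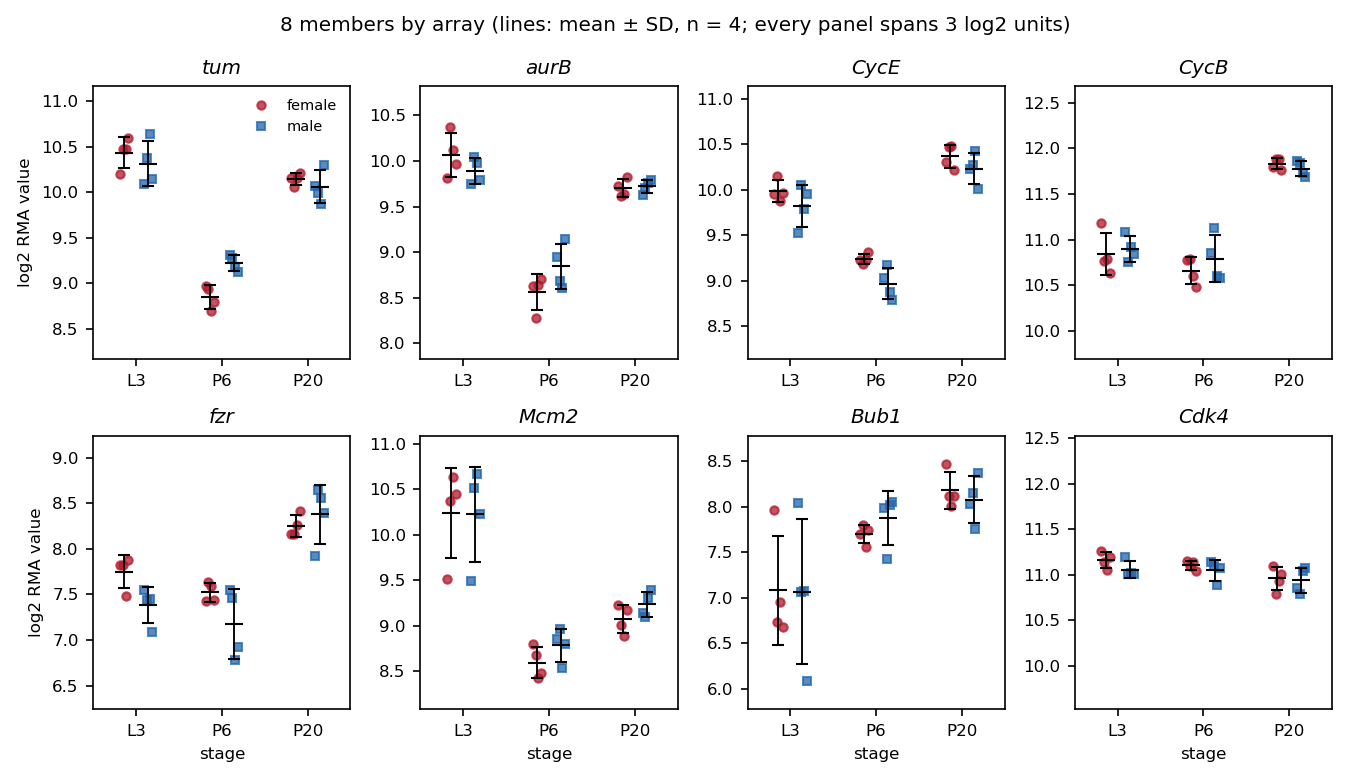
Log2 RMA values of 8 members by array at L3, P6 and P20, female circles left of male squares, with lines at the mean ± SD (n = 4); each panel spans 3 log2 units. The genes tum, aurB and CycE dip at P6, CycB and fzr are highest at P20, Mcm2 stays below L3, Bub1 has 1 high L3 array in each sex, and Cdk4 is flat.

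Among genes of mitotic entry and exit, CycB rose at P20 in both sexes without passing at P6, and CycB3 fell and rose in females. CycB, a partner of the mitotic kinase Cdk1, read 11.18, 10.77, 10.78 and 10.64 at L3, 10.78, 10.78, 10.60 and 10.48 at P6, then 11.80, 11.89, 11.88 and 11.77 at P20 in females. The male series of CycB was 11.08, 10.75, 10.91 and 10.84 at L3, 10.85, 11.13, 10.60 and 10.58 at P6, then 11.86, 11.84, 11.73 and 11.68 at P20. L3 and P6 values overlapped in each sex, and all P20 values lay above both. It did not pass between P6 and L3 (-0.18 in females and -0.11 in males, adjusted p = 0.291 and 0.545) and rose at P20 relative to P6 by 1.17 ± 0.13 in females and 0.99 ± 0.13 in males (adjusted p = 1.93e-07 and 2.56e-06). CycB3, the cyclin that acts around anaphase, read 9.49, 9.76, 10.07 and 9.61 at L3, 9.36, 9.33, 9.25 and 9.30 at P6, then 9.87, 9.73, 9.72 and 9.75 at P20 in females. Males gave CycB3 values of 9.51, 9.71, 9.75 and 9.65 at L3, 9.56, 9.54, 9.56 and 9.44 at P6, then 9.81, 9.74, 9.45 and 9.88 at P20. It fell at P6 and rose at P20 in females (-0.42 and 0.46, adjusted p = 0.00492 and 0.00326), whereas the male differences of -0.13 and 0.19 did not pass.

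Of the members that activate the anaphase-promoting complex, fzy fell at P6 in both sexes, and fzr did not pass at that step. The mitotic activator gene fzy, the fly Cdc20, had 9.99, 10.56, 10.75 and 10.55 at L3, 9.29, 8.82, 9.06 and 9.01 at P6, then 10.10, 9.82, 9.95 and 10.15 at P20 in females. It had 9.83, 10.37, 10.57 and 10.48 at L3, 9.37, 9.21, 9.17 and 9.35 at P6, then 10.03, 9.85, 9.88 and 10.24 at P20 in males. P6 arrays of each sex lay below all its L3 and P20 arrays. It fell at P6 relative to L3 with differences of -1.42 in females and -1.04 in males (adjusted p = 4.45e-07 and 3.75e-05) and rose at P20 by 0.96 in females and 0.73 in males (adjusted p = 8.87e-05 and 0.00173). These values come from its brightest probe set, with a mean of 9.85; 2 others with means of 3.87 and 3.13 were dim and did not pass at P6, with differences of -0.23 and 0.09 in females and -0.22 and 0.00117 in males.

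The other activator, fzr, is the fly Cdh1, which keeps mitotic cyclins low in G1 and in cells that leave the mitotic cycle. In females fzr read 7.82, 7.82, 7.48 and 7.88 at L3, 7.43, 7.64, 7.59 and 7.44 at P6, then 8.16, 8.17, 8.27 and 8.41 at P20. In males fzr read 7.55, 7.44, 7.44 and 7.09 at L3, 7.55, 7.46, 6.78 and 6.92 at P6, then 7.92, 8.65, 8.56 and 8.40 at P20. L3 and P6 values overlapped, and P20 values were higher than all of them in each sex. Its P6 minus L3 differences of -0.23 in females and -0.20 in males did not pass, and it rose at P20 relative to P6 by 0.73 ± 0.17 in females and 1.203 ± 0.17 in males (adjusted p = 0.00216 and 8.92e-06).

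Of 4 members of the spindle checkpoint and kinetochore, mad2 and cid fell at P6 in both sexes, and Bub1 and Bub3 did not fall. The checkpoint gene mad2, whose product inhibits the mitotic activator of the anaphase-promoting complex, read 11.17, 10.63, 11.09 and 11.34 at L3, 10.39, 10.15, 10.04 and 10.31 at P6, then 11.30, 11.30, 11.58 and 11.48 at P20 in females. Its male readings were 11.07, 10.90, 11.24 and 11.11 at L3, 10.53, 10.37, 10.32 and 10.58 at P6, then 11.37, 11.21, 11.37 and 11.31 at P20. P6 lay below L3 and P20 without overlap. It fell with differences of -0.84 in females and -0.63 in males and rose at P20 by 1.19 in females and 0.87 in males (adjusted p = 2.21e-05, 0.000608, 1.77e-07 and 1.77e-05). The centromeric histone gene cid, the fly CENP-A, gave 6.79, 7.63, 7.42 and 8.10 at L3, 6.22, 5.82, 6.02 and 6.06 at P6, then 6.20, 6.41, 6.06 and 6.51 at P20 in females. Male discs gave cid values of 6.66, 7.42, 8.02 and 7.54 at L3, 5.96, 6.10, 6.13 and 6.25 at P6, then 6.15, 6.32, 6.32 and 6.60 at P20. Array 1 was the lowest at L3 in each sex and still lay above all P6 arrays. It fell with a difference of -1.46 ± 0.23 in females and -1.30 ± 0.23 in males (adjusted p = 4.05e-05 and 0.000187) and did not pass between P20 and P6 (0.27 in females and 0.24 in males).

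Bub1, a checkpoint kinase of the kinetochore, read 7.96, 6.74, 6.96 and 6.67 at L3, 7.70, 7.80, 7.56 and 7.75 at P6, then 8.47, 8.11, 8.01 and 8.12 at P20 in females. Bub1 arrays of males read 8.04, 7.06, 7.08 and 6.09 at L3, 7.99, 7.43, 8.02 and 8.06 at P6, then 8.03, 8.15, 7.76 and 8.37 at P20. Array 1 of each sex was the highest at L3 by a wide margin; it lay above every P6 array in females and within the P6 values in males. Bub1 was the only member higher at P6 than at L3, in males, by 0.81 ± 0.30 (adjusted p = 0.0392), with 0.62 in females (adjusted p = 0.114). The male call ended without any 1 of male L3 replicates 2, 3 or 4 or male P6 replicates 1, 3 or 4 (0.48 to 0.81, adjusted p up to 0.188); in a fit to the 2 groups alone it did not pass either (adjusted p = 0.141). Without array 1 of both L3 groups the difference passed in both sexes, at 0.91 in females and 1.13 in males (adjusted p = 0.00125 and 0.000178). Bub3, its partner, read 11.50, 10.74, 10.68 and 10.86 at L3, 11.18, 11.12, 10.89 and 10.92 at P6, then 11.37, 11.37, 11.40 and 11.76 at P20 in females. The males had Bub3 at 11.45, 10.71, 10.59 and 10.78 at L3, 11.12, 10.92, 11.24 and 10.96 at P6, then 11.48, 11.29, 11.30 and 11.61 at P20. Array 1 was again the highest at L3 in each sex. Bub3 passed neither at P6 relative to L3 (0.08 in females and 0.18 in males) nor at P20 relative to P6 (0.45 in females and 0.36 in males, adjusted p = 0.0674 and 0.152). Without array 1 of both L3 groups the male P6 minus L3 difference of Bub3 was 0.37 and passed (adjusted p = 0.0189).

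Of 6 members of chromosome condensation and segregation, 5 fell in females and 4 in males at P6, and all 6 rose at P20 in females and 5 in males. The kinase gene aurB and its scaffold gene Incenp encode the chromosomal passenger complex, which corrects attachments and starts cytokinesis. In females aurB read 9.81, 10.37, 10.12 and 9.97 at L3, 8.63, 8.27, 8.64 and 8.70 at P6, then 9.72, 9.61, 9.63 and 9.83 at P20. In males aurB read 9.75, 10.04, 9.97 and 9.79 at L3, 8.94, 8.68, 8.60 and 9.15 at P6, then 9.63, 9.70, 9.76 and 9.80 at P20. The P6 sets were wholly below the others. It fell with a difference of -1.51 ± 0.13 in females, 2.84-fold, and -1.05 ± 0.13 in males (adjusted p = 6.35e-09 and 2.09e-06), and rose at P20 by 1.14 in females and 0.88 in males (adjusted p = 5.87e-07 and 2.22e-05).

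Incenp had values of 9.95, 10.49, 10.20 and 10.45 at L3, 8.93, 8.82, 8.75 and 8.84 at P6, then 9.77, 9.63, 9.49 and 9.77 at P20 in females. Values of Incenp in males were 9.93, 10.51, 10.30 and 10.32 at L3, 9.09, 9.02, 8.995 and 9.22 at P6, then 9.55, 9.74, 9.39 and 9.91 at P20. P6, P20 and L3 formed 3 sets without overlap in each sex, in that order from low to high. It fell at P6 with differences of -1.44 in females and -1.18 in males (adjusted p = 2.09e-08 and 5.02e-07) and rose at P20 relative to P6 by 0.83 in females and 0.56 in males (adjusted p = 5.73e-05 and 0.00336). The condensin genes barr and glu fell with differences of -0.92 and -0.77 in females and -0.81 and -0.74 in males and rose at P20 by 0.77 and 0.50 in females and 0.64 and 0.47 in males.

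The securin gene pim, whose product restrains separase until anaphase, did not pass at P6 and rose at P20. In females pim read 10.97, 10.56, 10.29 and 10.53 at L3, 10.37, 10.38, 10.21 and 10.06 at P6, then 11.12, 11.11, 11.28 and 11.02 at P20. For males the pim arrays read 11.04, 10.37, 10.40 and 10.46 at L3, 10.55, 10.53, 10.25 and 10.24 at P6, then 11.26, 11.19, 11.54 and 11.29 at P20. L3 and P6 overlapped, and every P20 array lay above all of them in each sex. It did not pass at P6 (-0.33 in females and -0.17 in males, adjusted p = 0.0928 and 0.402) and rose at P20 relative to P6 by 0.88 in females and 0.93 in males (adjusted p = 0.000101 and 5.65e-05). The separase complex gene thr fell in females with a difference of -0.65 and rose by 0.59, the rise ending without female P6 replicates 2, 3 or 4 or female P20 replicates 1 or 2 (0.53 to 0.56, adjusted p up to 0.0629); in males thr gave -0.25 and 0.33 and did not pass.

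Klp61F, the kinesin that pushes spindle poles apart, read 9.79, 10.26, 10.58 and 10.38 at L3, 8.77, 8.85, 8.82 and 8.52 at P6, then 9.66, 9.40, 9.48 and 9.59 at P20 in females. Klp61F was 9.54, 10.33, 10.44 and 10.49 at L3, 8.99, 9.11, 8.95 and 8.97 at P6, then 9.51, 9.59, 9.64 and 9.70 at P20 in males. Array 1 of each sex was lowest at L3 and all P6 values were lower still. Its fall measured -1.51 ± 0.17 in females and -1.19 ± 0.17 in males (adjusted p = 3.47e-07 and 1.18e-05), and the rise at P20 was 0.79 in females and 0.60 in males (adjusted p = 0.00111 and 0.0111).

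All 4 cytokinesis members fell at P6 and rose at P20 in both sexes. The smallest adjusted p of any member at P6 was that of tum in each sex; it encodes the RacGAP of centralspindlin, which bundles the central spindle. In females tum read 10.20, 10.47, 10.47 and 10.59 at L3, 8.97, 8.94, 8.69 and 8.79 at P6, then 10.15, 10.06, 10.16 and 10.20 at P20. In males tum read 10.09, 10.38, 10.64 and 10.15 at L3, 9.31, 9.28, 9.17 and 9.12 at P6, then 10.06, 9.996, 9.87 and 10.30 at P20. Every P6 array lay below every L3 and P20 array of its sex. Its P6 minus L3 difference was -1.59 ± 0.12 in females, 3-fold, and -1.09 ± 0.12 in males, 2.13-fold (adjusted p = 5.81e-10 and 2.86e-07), and the rise at P20 was 1.30 ± 0.12 in females and 0.84 ± 0.12 in males (adjusted p = 1.79e-08 and 1.24e-05).

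The gene pbl, which is needed for cytokinesis, had 9.90, 9.38, 9.60 and 9.58 at L3, 8.996, 8.90, 8.72 and 8.76 at P6, then 10.34, 10.31, 10.22 and 10.04 at P20 in females. In male arrays pbl had 9.99, 9.62, 9.75 and 9.53 at L3, 9.06, 8.91, 8.97 and 8.97 at P6, then 10.34, 10.24, 10.01 and 10.09 at P20. P6 was lowest and P20 highest, without overlap with L3, in both sexes. It fell with differences of -0.77 in females and -0.74 in males (adjusted p = 2.57e-05 and 5e-05) and rose at P20 by 1.38 ± 0.12 in females and 1.19 ± 0.12 in males (adjusted p = 5.03e-09 and 6.47e-08), the largest rise of any member in females. The microtubule bundler gene feo, the fly PRC1, gave 10.49, 10.77, 10.57 and 10.47 at L3, 9.51, 9.41, 9.50 and 9.33 at P6, then 10.45, 10.21, 10.27 and 10.29 at P20 in females. Male arrays gave feo values of 10.37, 10.62, 10.33 and 10.23 at L3, 9.71, 9.54, 9.69 and 9.67 at P6, then 10.25, 10.13, 10.43 and 10.17 at P20. P6 lay below the others without overlap. It fell with differences of -1.13 in females and -0.73 in males (adjusted p = 7.31e-09 and 6.86e-06) and rose by 0.87 in females and 0.59 in males (adjusted p = 5.69e-07 and 0.000102). The anillin gene scra, a scaffold of the contractile ring, fell with differences of -0.78 in females and -0.49 in males and rose by 0.76 in females and 0.40 in males.

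Setting P20 directly against L3 asks which members ended above or below their larval level. In females 10 members (27.8%) were higher and 10 lower, and in males 10 were higher and 5 (13.9%) lower, where the female shares over all genes were 17.7% higher and 22.2% lower and the male ones 17.8% and 20.3%, so these shares are near those of all genes. The member medians were 0.01 and 0.11. The same samples enter the comparisons above, so the differences here are not independent of them. Higher in both sexes were CycE, E2f2, Dp, CycB, fzr, Bub1, Bub3, pim and pbl, and lower in both were Mcm2, Orc1, cid, Incenp and Klp61F.

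CycB, fzr, pim, pbl and CycE ended above larval discs in both sexes. CycB averaged 11.83 at P20 against 10.84 at L3 in females and 11.78 against 10.90 in males, differences of 0.99 in females and 0.88 in males (adjusted p = 2.67e-06 and 1.31e-05). For fzr the difference was 0.50 in females and 1.002 in males (adjusted p = 0.0217 and 8.21e-05), for pim 0.55 in females and 0.76 in males, for pbl 0.62 in females and 0.45 in males, and for CycE 0.38 in females and 0.41 in males. The CycE calls ended when arrays were centred on the median (0.38 and 0.39, adjusted p = 0.0961 in females and 0.0897 in males), as did the female calls of Mcm6, fzy, aurB and feo (adjusted p of 0.0562 to 0.162). Mcm2, cid, Orc1, Klp61F and Incenp ended below larval discs in both sexes. Mcm2 differed by -1.17 in females and -0.99 in males (adjusted p = 0.000216 and 0.00115), cid by -1.19 in females and -1.06 in males, Orc1 by -0.93 in females and -0.73 in males, Klp61F by -0.72 in females and -0.59 in males and Incenp by -0.61 and -0.62 in females and males.

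**Figure D4:**
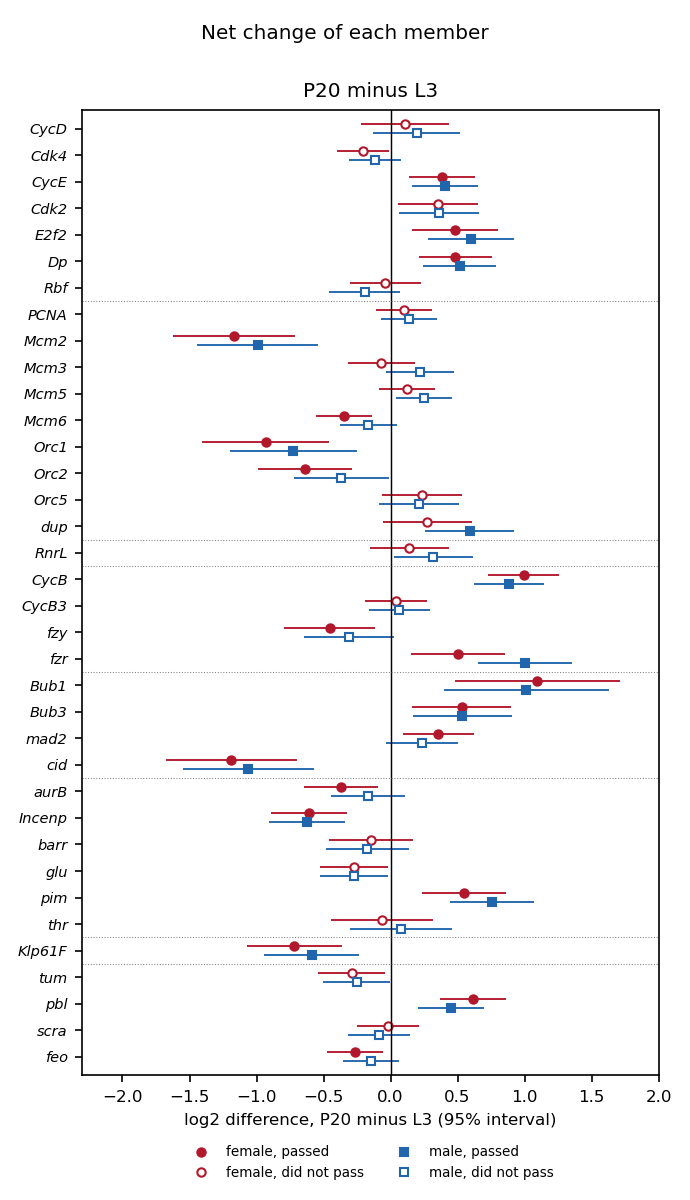
Log2 differences P20 minus L3 with 95% intervals for each member, female circles above male squares; filled symbols passed the threshold. CycB, fzr, Bub1, pim and pbl lie to the right of 0 in both sexes, and Mcm2, Orc1, cid, Incenp and Klp61F to the left.

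Several calls between P20 and L3 rest on few arrays. In females those of aurB (-0.37), feo (-0.27) and fzy (-0.45) each ended without any of 5 arrays (adjusted p up to 0.126, 0.137 and 0.115). These arrays were L3 replicates 2 and 3 with P20 replicates 1, 2 and 3 for aurB, L3 replicates 2 and 3 with P20 replicates 2, 3 and 4 for feo, and L3 replicates 2, 3 and 4 with P20 replicates 2 and 3 for fzy. Those of mad2 (0.36) and Bub3 (0.53) ended without any of 4, L3 replicates 2 and 3 and P20 replicates 3 and 4 for mad2 and L3 replicates 2, 3 and 4 and P20 replicate 4 for Bub3 (adjusted p up to 0.155 and 0.0775). That of E2f2 (0.48) ended without L3 replicates 2 or 3 or P20 replicate 4 (adjusted p up to 0.0703) and that of fzr without L3 replicate 3 or P20 replicate 4 (adjusted p up to 0.0822). In males Bub3 (0.54) did not pass without L3 replicates 2, 3 or 4 or P20 replicate 4 (adjusted p up to 0.0812), Orc1 without L3 replicate 2 or P20 replicate 3 (adjusted p up to 0.0665) and Bub1 (1.01) without L3 replicate 4 (0.69, adjusted p = 0.0544). Without female L3 replicate 3, or without female P20 replicate 4, 6 members were higher in females in place of 10. Without male L3 replicate 1, 8 were lower in males in place of 5, and without array 1 of both L3 groups 10 were, with Orc2, fzy, barr, glu and tum added (-0.33 to -0.47, adjusted p of 0.00351 to 0.0382). That setting also made Cdk2 higher in both sexes (0.44 in each, adjusted p = 0.0172 in females and 0.0181 in males), Mcm5 (0.32, adjusted p = 0.0144) and RnrL (0.43, adjusted p = 0.0119) higher in males, and tum lower in females (-0.37, adjusted p = 0.0132). In a fit to the 2 groups alone, with fewer arrays behind the spread, the male calls of CycE, Orc1, dup, Bub1, Bub3 and Klp61F did not pass (adjusted p of 0.0561 to 0.0813), nor did the female calls of E2f2, fzy, Bub3, mad2, aurB and feo (adjusted p of 0.0635 to 0.131).

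No member passed between the sexes at any stage. In limma 0 of 36 passed at L3, P6 or P20 in either direction, where 0.367%, 1.11% and 0.701% of all genes were higher in females and 0.618%, 3.72% and 1.65% lower. At an unadjusted p under 0.05 there were 2 members at L3, 5 at P6 and 0 at P20, against 820, 1550 and 1090 of 11982 genes. The 95% intervals of the female minus male differences lay within -0.60 to 0.72 at L3, -0.79 to 0.70 at P6 and -0.61 to 0.72 at P20 for every member, so differences of that size are not shown to be absent. The 6 X-linked members, CycD, Rbf, Mcm3, Mcm6, fzr and feo, are among these.

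The smallest adjusted p of a sex comparison was that of tum at P6. It read 8.97, 8.94, 8.69 and 8.79 in females and 9.31, 9.28, 9.17 and 9.12 in males, sets that did not overlap, and the difference of -0.37 ± 0.12 did not pass (adjusted p = 0.089). CycE at P6 had the opposite sign, 0.27 ± 0.12 (adjusted p = 0.305), and all 4 female arrays lay above the males. At P6 the difference was below 0 for 28 members and above 0 for 8, with a median of -0.13 against -0.01 over all genes; with arrays centred on the median it was below 0 for 21 and above 0 for 15, and the median was -0.04. Testis and germline markers summed to 10.59 to 10.78 in female P6 arrays and 11.22 to 12.67 in male P6 arrays, and their part in these differences was not tested.

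Whether the change over stages differed between the sexes was tested with an interaction. In limma's moderated F test 0 of 36 passed, where 1.65% of all genes did; 3 members had an unadjusted p under 0.05, against 892 of 11982 genes. The smallest adjusted p was 0.353, for tum, whose P6 minus L3 change differed by -0.49 ± 0.17, female minus male (adjusted p = 0.293 for that contrast). The next were Mcm3 (-0.53 ± 0.17) and feo (-0.40 ± 0.14). The calls that were made in females without being made in males are therefore not shown to differ between the sexes.

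Other genes of the same processes were read from 6 companion lists, which share no gene with the members. Their counts stand beside these shares of all genes. At P6 relative to L3, 21% fell and 14.6% rose in females, and 18.5% and 16.3% in males. At P20 relative to P6, 14.2% rose and 12.1% fell in females, and 13.1% and 12.6% in males. At P20 relative to L3, 22.2% were lower and 17.7% higher in females, and 20.3% and 17.8% in males. Of 38 other replication genes, 32 fell and 0 rose at P6 relative to L3 in females, and 27 fell and 0 rose in males, with medians of -0.83 and -0.67. The DNA polymerase genes PolE1 (-1.80 in females and -1.198 in males) and PolA1 (-2.33 in females and -1.65 in males) and the replisome gene Ctf4 (-1.04 in females and -0.80 in males) were among them. PolA1 averaged 5.38 at P6 and 5.94 at P20 in females, and 5.75 and 5.74 in males. These lie near the array medians of 5.04 to 5.18 over all probe sets, so the size of its differences is uncertain. At P20 relative to P6, 22 of the 38 rose in females and 18 in males, yet 20 and 14 were still lower at P20 than at L3, among them PolE1 (-1.14 in females and -0.93 in males) and PolA1 (-1.77 in females and -1.66 in males), while 1 and 5 were higher. The single-strand binding subunit gene RPA3, with 0.42 in females and 0.45 in males, was higher in both sexes.

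Of 49 other mitosis genes, 30 fell and 2 rose at P6 in females, and 25 fell and 1 rose in males; at P20 relative to P6, 35 and 28 rose and 1 fell in each sex. The centrosome gene spd-2 (-1.28 in females and -1.02 in males), the mitotic spindle gene mars (-1.42 in females and -1.15 in males) and the minus-end kinesin gene ncd (-1.68 in females and -1.59 in males) fell. The kinetochore gene Nnf1b went against the list, with 0.40 in females and 0.62 in males at P6 relative to L3 and -0.85 in females and -0.82 in males at P20 relative to P6, all past the threshold. Among 15 genes listed with cohesin and condensin, vap included, 8 fell and 0 rose at P6 in each sex. SMC2, a condensin core subunit and partner of glu, fell with -1.499 in females and -1.03 in males. At P20 relative to P6, 6 of the 15 rose in each sex. Among 16 genes of the anaphase-promoting complex and other ubiquitin ligases, 8 fell and 1 rose in females and 7 fell and 1 rose in males at P6, Cdc23 with -1.19 in females and -0.99 in males, and SkpA was the one that rose (0.48 in females and 0.54 in males).

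**Figure D5:**
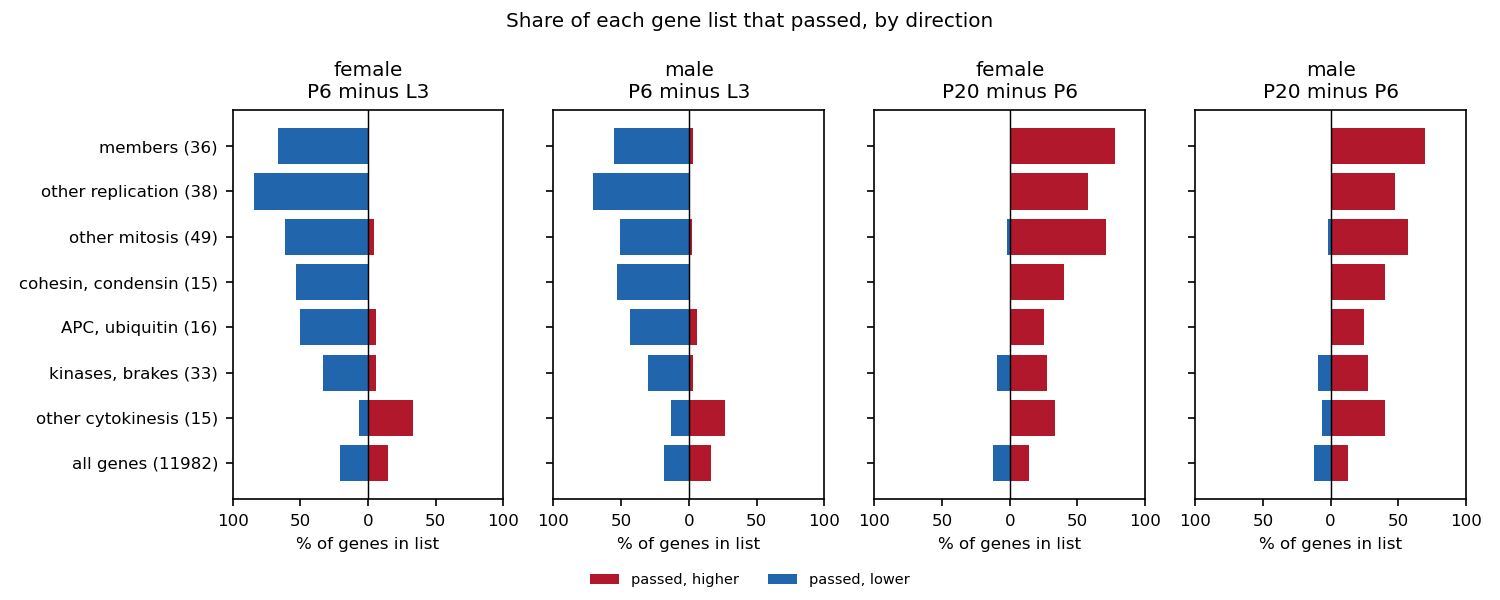
Share of each gene list that passed, in percent, for P6 minus L3 and P20 minus P6 in each sex; bars to the left of 0 are lower and bars to the right higher at the later stage, list sizes are in brackets, and the bottom row holds all 11982 genes. Members, other replication and other mitosis genes lean left at P6 and right at P20, while other cytokinesis genes lean right at both.

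Among 33 cell cycle kinases, brakes and related genes, of which twe and aly are also testis markers here, 11 fell and 2 rose at P6 in females and 10 fell and 1 rose in males. Over all genes 21% fell and 14.6% rose at that step in females, and 18.5% and 16.3% in males. The kinase subunit gene Cks30A fell at P6 (-1.05 in females and -0.54 in males) and rose at P20 (1.26 in females and 0.79 in males). The cyclin A inhibitor gene rux rose at both steps, by 0.45 in females and 0.51 in males at P6 and by 0.44 in females and 0.51 in males at P20. The growth repressor gene brat rose at P20 by 1.43 in females and 1.38 in males. Of 15 other cytokinesis and cortex genes, 5 rose and 1 fell at P6 in females and 4 rose and 2 fell in males. Septin4 rose by 1.22 in females and 1.78 in males and again at P20 by 2.56 in females and 2.54 in males, fwd, a phosphatidylinositol 4-kinase gene, rose by 1.17 in females and 0.91 in males, and the kinesin gene neb fell with differences of -1.56 in females and -0.89 in males.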

How the data were processed

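Total RNA of dissected discs was labelled, per the labels' protocols, from 20 ng with a NuGEN kit and hybridised to 1 Affymetrix array per sample. The deposited log2 values, 1 per probe set and array, came from RMA, per the submitters' processing notes. Its version and settings are not given in the sources used here. No detection calls are used, so signal over background is unknown and precision is limited by the number of arrays. The table held 18952 probe sets (183 controls left out) in 24 columns, with medians of 5.04 to 5.18. The platform annotation gave 13647 probe sets 1 gene each and 402 several; probe sets with several or none were left out. For each of 11982 genes the probe set with the highest mean was used, with no filter on low values, and chromosomes came from a Release 6 table.

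In R 4.3.3, limma 3.58.1 (lmFit and eBayes) modelled the 24 arrays together with a mean for each group, which left 18 residual degrees of freedom, and p was adjusted over all 11982 genes by Benjamini and Hochberg's method. Differences are later minus earlier and female minus male; sex by stage was tested by a moderated F with 2 degrees of freedom. Marker sums are of unlogged values, then log2. The members, lists and comparisons were chosen with earlier results of these data known. One entry of the replication list resolved to a gene of another process, DCTN6-p27, and was kept in its counts. Named members are the measured ones of stg, dap, fzr, CycE, CycA, CycB, CycB3 and E2f1, and in each role the 2 with the smallest adjusted p in each stage comparison, with values per array. Companion genes given with values are among the 3 with the smallest adjusted p of their list or go against it. Orc4 is outside this rule and was named beside the Orc members. Other members are given by their differences.

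Deviations of same-numbered arrays of the sexes correlated over genes at 0.07 to 0.68 at L3, 0.03 to 0.28 at P6 and 0.11 to 0.42 at P20. The highest of these was between the number 1 arrays at L3. Only at P20 did all 4 pairs exceed 0.1. Between stages of a sex the correlations ran from -0.20 to 0.20. The labels do not say what a number shares. In data simulated for 11982 genes, female P6 minus L3 changes of 2, 1 and 0.5 log2 units were recovered for 98.5%, 80.6% and 31.3% of genes. The changed genes numbered only 66, 67 and 67, while 1752 genes were higher and 2512 lower in the real comparison. With so few changed genes the adjustment of p is stricter, so these shares do not give the recovery in the stage comparisons. Alternatives were median centring, eBayes with trend and robust options, dropping genes whose mean is under 5 log2 units, averaging the probe sets of a gene or taking another one, a fit to the 2 groups alone, a replicate block, and leaving out arrays.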

Additional observations from a re-analysis of the deposited data

Results flagged for a closer look

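In 10 of 216 sets of 4 arrays (36 members in 6 groups) 1 array lay far from the other 3, by Dixon's test; chance gives about 1 in 20. In male L3 replicate 1, Cdk4 read 11.19 (others 11.01 to 11.02), pim 11.04 (others 10.37 to 10.46) and Klp61F 9.54 (others 10.33 to 10.49). In female L3 replicate 3, fzr read 7.48 (others 7.82 to 7.88). At P6, thr read 7.88 in female replicate 1 (others 7.25 to 7.32), aurB 8.27 in female replicate 2 (others 8.63 to 8.70), Bub1 7.43 in male replicate 2 (others 7.99 to 8.06) and CycB3 9.44 in male replicate 4 (others 9.54 to 9.56). At P20, Bub3 read 11.76 in female replicate 4 (others 11.37 to 11.40) and Rbf 8.45 in male replicate 3 (others 8.84 to 8.87).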

How the results depend on the processing

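Without 1 array, 24 to 25 members fell at P6 in females and 20 to 21 in males, and 23 to 28 and 23 to 25 rose at P20 relative to P6. Members higher at P6 numbered 0 to 2 in females and 0 to 1 in males without 1 array, 3 and 3 without array 1 of both L3 groups, and 0 in males in a fit to the 2 groups alone. Between P20 and L3, fits without 1 array gave 6 to 11 higher and 7 to 11 lower in females and 8 to 13 higher and 4 to 8 lower in males. In females 6 were lower after median centring. In males 6 were higher and 3 lower in a fit to the 2 groups alone, and 10 were lower without array 1 of both L3 groups. The cause of these shifts was not tested. For fzy, the mean of its 3 probe sets gave 0.079 for P20 minus L3 in females (adjusted p = 0.652), a dim probe set gave 0.74 (adjusted p = 0.00979), and a dimmer one gave 0.0902 and 0.00117 for P6 minus L3 in females and males and -0.14 for P20 minus P6 in females. Of 133 calls of single members, 20 ended without at least 1 array. Centring ended 6 calls and a fit to the 2 groups alone 14. With the replicate block, no call of a member in a sex comparison was made, at P20 included (0 and 0), and the one call it ended was that of Mcm6 in males between P20 and P6 (0.28, adjusted p = 0.0529), where numbers do not pair the arrays. No member passed in a sex comparison or the interaction under any alternative run.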
